A study of Mus musculus with 15 samples.

Results

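Brown adipose tissue from control mice kept at 29 °C for 8 weeks was compared with the same tissue from control mice kept at room temperature for 8 weeks. The comparison was set by the sample labels alone, as the 4 WT libraries at 29 °C against the 4 WT libraries at room temperature, 8 of the 15 libraries in the series. The controls are flox mice, labelled WT: they carry floxed alleles without the deletion of DJ-1 that the other genotype, BDJ1KO, has in brown fat. The other 7 libraries, 4 knockout (KO) at room temperature and 3 KO at 29 °C, entered the same model and served for 1 further test, whether the housing effect differed in KO. Whole tissue was sequenced as bulk RNA, so every value is an average over adipocytes and all other cells of the depot. The strain, sex and age of the mice, the hour of collection, and whether each library was a separate animal are not stated in the labels, and p-values therefore measure only the spread between these samples.

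Brown fat burns lipid and sugar to make heat. Cold is sensed in the brain and relayed by sympathetic nerves, whose noradrenaline acts on the beta-3 adrenergic receptor of the brown adipocyte, raises cyclic AMP and activates protein kinase A. The kinase releases fatty acids from lipid droplets and switches on heat-making genes, among them Ucp1, whose protein lets protons leak across the inner mitochondrial membrane so that respiration yields heat. Room temperature is a mild cold load for a mouse and keeps this programme running, whereas at about 29 °C little extra heat is needed, and brown fat kept there takes on features of white fat, a change called whitening.

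The 8 libraries held 23977400 to 26547400 estimated counts each. Park7, which encodes DJ-1, measured 111, 108, 112 and 109 CPM at room temperature and 128, 126, 116 and 104 CPM at 29 °C in replicates 1 to 4, where CPM are counts scaled by TMM to a common library size. Effects are given as log2 change, the log2 fold change at 29 °C against room temperature, ± SE. These levels overlapped, and the log2 change of 0.11 ± 0.11 was not called (adjusted p = 0.41). The tissue label fitted its markers: Ucp1, Cidea, Dio2, Elovl3, Ppargc1a and Cox8b were all detected in all 8 libraries. In a principal component analysis of the 8 libraries the first component held 80.8% of the variance and parted the housing groups (scores of -56.57 to -48.7 at room temperature and 46.33 to 54.79 at 29 °C). Along the second component (7.01%) the warm libraries themselves spread, with replicate 2 at 28.2 and replicate 4 at -25.75.

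A pair of warm libraries stood apart in their makeup, and results that rest on them are given with and without them. Markers of skeletal muscle made up 0.221% of counts in warm replicate 2 and 0.00356% to 0.00755% in the other 7. Transcripts encoded by mitochondrial DNA took 41.6% of counts in warm replicate 4, 30.2% to 34.2% in the other 3 warm libraries, and 25.2% to 27.4% at room temperature (26.2 ± 1.11% against 34.2 ± 5.25%, mean ± SD, n = 4 each). That share did not overlap between the groups (two-sided exact permutation test over 70 arrangements, p = 0.0286, which 4 against 4 cannot go below), and without any 1 room-temperature library the difference was 7.602 to 8.351 percentage points, with p = 0.0571 to 0.0857 from the 7 libraries left.

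Warm housing was followed by a change in most of the transcriptome. Of 15083 genes tested, 10375 (68.8%) were called at an adjusted p under 0.05 in edgeR's quasi-likelihood test with Benjamini-Hochberg adjustment. Of all genes tested, 35.9% were called higher and 32.8% lower at 29 °C, and 51.3% were called with a change over 1.5-fold (28.8% higher, 22.5% lower). The groups did not overlap for 62.6% of genes, and the median log2 change over all genes was 0.06. The split of the calls depends on how libraries are scaled: 52.3% of called genes were higher with TMM and 71.6% when libraries were scaled by their totals only, a scaling that moved the median of all genes to 0.41. A count for a gene list is therefore read here against 35.9% and 32.8%, not against 0. The lists describe groups of genes and were not tested as groups.

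Genes of the heat-making programme were lower as a group. Of 25 brown fat thermogenic genes tested, 23 fell, none rose and 2 were not called, with a median log2 change of -1.80. Ucp1 (GRCm38.p6 chr8:83290348-83298456) measured 8008, 8717, 7689 and 9992 CPM at room temperature and 839, 1086, 876 and 1277 CPM at 29 °C. Every warm library lay below every room-temperature library, at 11.9% of the room-temperature mean (log2 change -3.08 ± 0.23, adjusted p = 1.7e-08). Dio2, the deiodinase that makes active thyroid hormone inside the cell, was at 232, 531, 357 and 434 CPM and 11.1, 35.5, 35.6 and 107 CPM. The warm libraries of Dio2 spread widely, with replicate 1 lowest and replicate 4 highest, and none reached the lowest room-temperature value (log2 change -3.04 ± 0.68, adjusted p = 0.0017; -3.82 without warm replicate 4). Elovl3, an elongase of very long fatty acids that is induced by cold, was nearly silent in the warm libraries, at 1.25, 1.26, 0.588 and 3.35 CPM against 56.7, 52.3, 89.7 and 48.9 CPM (log2 change -5.29 ± 0.71, adjusted p = 3.4e-05; -5.89 without warm replicate 4).

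Other heat-related members had warm levels that were close together. Letmd1, which encodes a mitochondrial protein needed for normal brown fat function, went from 837, 872, 848 and 891 CPM to 178, 158, 182 and 162 CPM (log2 change -2.34 ± 0.096, adjusted p = 1.2e-10). Otop1, a proton channel, was at 269.8, 304, 266 and 295 CPM and 37.01, 42.7, 33.5 and 39.8 CPM (log2 change -2.89 ± 0.13, adjusted p = 2.4e-10). Acot11, an acyl-CoA thioesterase also known as Them1 that removes fatty acids from the path to oxidation, fell to 4.9999% of its level, from 913, 803, 700.3 and 1118 CPM to 52.8, 51.2, 40.5 and 32.1 CPM (log2 change -4.32 ± 0.25, adjusted p = 2.3e-09). In these 3 genes the groups were far apart relative to their own spread. Slc25a20, the carrier of acylcarnitines into mitochondria, fell by the same order (log2 change -2.04 ± 0.11, adjusted p = 7.6e-10).

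Cidea, Cox8b and Prdm16, which are used to mark brown fat, had smaller log2 changes than Ucp1, while Ebf2 and Zbtb7b, of brown fat development, fell more than these 3 (log2 changes -1.74 ± 0.12 and -1.28 ± 0.12, adjusted p = 6.1e-09 and 8.0e-08). Cidea, a lipid droplet protein often used as a brown fat marker, measured 2227, 2123, 2289 and 2169.99 CPM and 2144, 1799, 1086 and 1240.1 CPM. Warm replicate 1 lay within the room-temperature range, and the fall was small (log2 change -0.49 ± 0.17, adjusted p = 0.02, and not called without warm replicate 3 or 4, adjusted p = 0.070 and 0.066). Cox8b, a cytochrome oxidase subunit of brown fat and muscle, overlapped between the groups at 568 ± 56.6 CPM and 578 ± 91.3 CPM and was not called (log2 change 0.02 ± 0.13, adjusted p = 0.88). Prdm16, a co-regulator of the brown fate, measured 30.7, 51.9, 23.5 and 31.8 CPM and 16.1, 21.9, 26.3 and 23.97 CPM, and the groups overlapped (log2 change -0.64 ± 0.22, adjusted p = 0.018; 0.076 without room-temperature replicate 2 and 0.059 without warm replicate 1). With libraries scaled by totals only, neither Cidea (adjusted p = 0.51) nor Prdm16 (adjusted p = 0.25) was called. Cox8b was called higher with that scaling (log2 change 0.38, adjusted p = 0.029).

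**Figure D1:**
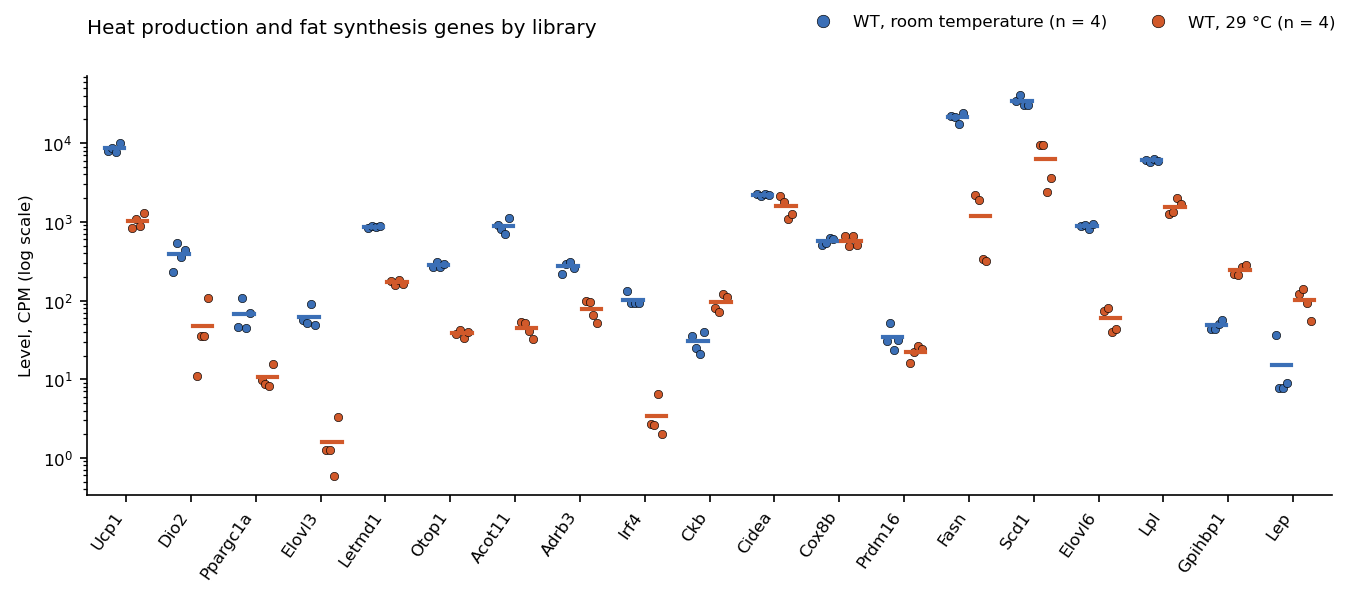
Level of named genes of heat production and fat metabolism in each WT library, in CPM on a log axis, at room temperature (blue) and 29 °C (orange); points are libraries in replicate order and bars are group means (n = 4). Ucp1, Dio2, Elovl3, Irf4 and Fasn are far lower in all warm libraries, Cidea, Cox8b and Prdm16 overlap between the groups, and Ckb, Gpihbp1 and Lep are higher.

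Most genes of the signalling chain that drives heat production were lower, among them the receptor, some adenylyl cyclases and kinase subunits. Of 20 adrenergic, cyclic AMP and lipolysis genes tested, 15 fell and 2 rose (median log2 change -1.46). The adenylyl cyclases Adcy5 and Adcy6, and G0s2, were not called. Adrb3, the beta-3 adrenergic receptor, went from 218, 291, 312 and 262 CPM to 99.2, 94.6, 64.5 and 52.4 CPM (log2 change -1.80 ± 0.24, adjusted p = 1.2e-05). Adcy3, an adenylyl cyclase, fell from 260.1 ± 41.4 to 37.8 ± 5.07 CPM (log2 change -2.78 ± 0.19, adjusted p = 1.0e-08). The protein kinase A subunits followed: Prkaca, the catalytic subunit, fell to 31.4% of its level and Prkar2b, the regulatory subunit abundant in fat, to 22.3% (log2 changes -1.67 ± 0.09 and -2.17 ± 0.12, adjusted p = 4.5e-10 and 5.1e-10). The opposing enzyme Pde4d, which breaks cyclic AMP down, also fell (log2 change -2.48 ± 0.17, adjusted p = 5.4e-09). Adcy10, a soluble adenylyl cyclase, had the largest fall of all genes that met the naming rule, from 7.32, 9.41, 5.42 and 9.48 CPM to 0.0347, 0.0996, 0.0346 and 0.0807 CPM (log2 change -6.89 ± 0.44, adjusted p = 2.9e-09); the warm values are a few counts each.

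Nerve and Schwann cell markers did not share in these falls. Of 12 tested, 2 rose and 2 fell (5 rose without room-temperature replicate 3, and 7 rose and 1 fell with totals only), and their summed level was 143.6 ± 22.5 CPM at room temperature and 123.7 ± 18.4 CPM at 29 °C (two-sided exact permutation test, p = 0.29). In bulk tissue, fewer cells of a type and less RNA per cell cannot be told apart, and this holds for every level given here.

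Transcription regulators of brown fat fell in 18 of 23 tested, and 2 rose (median log2 change -1.28). Ppargc1a, the coactivator of mitochondrial and heat-making genes, measured 45.8, 109, 44.2 and 69.5 CPM and 9.75, 8.802, 8.299 and 15.8 CPM (log2 change -2.66 ± 0.42, adjusted p = 1.0e-04). Irf4, a partner of Ppargc1a in the cold and fasting responses, was at 131, 93.3, 92.4 and 91.9 CPM at room temperature and 2.67, 2.59, 6.54 and 2.02 CPM at 29 °C. Warm Irf4 was 3.38% of the room-temperature mean, and replicate 3 was highest of the 4 (log2 change -4.88 ± 0.76, adjusted p = 1.2e-04). Ebf2, a factor that marks committed brown precursors and adipocytes, fell from 58.95 ± 8.91 to 17.7 ± 2.8004 CPM (log2 change -1.74 ± 0.12, adjusted p = 6.1e-09). Esrrg, a nuclear receptor for oxidative genes, fell from 26.3 ± 2.76 to 4.801 ± 1.91 CPM (log2 change -2.45 ± 0.24, adjusted p = 4.7e-07). Zbtb7b, a driver of brown fat development, fell less (log2 change -1.28 ± 0.12, adjusted p = 8.0e-08). Of 10 thyroid hormone genes tested, 8 fell and none rose (7 and 1 with totals only), among them the receptor Thrb, from 48.1 ± 7.55 to 17.8 ± 1.58 CPM (log2 change -1.43 ± 0.12, adjusted p = 3.2e-08).

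Heat can also be made without Ucp1, by cycles that spend ATP to no other end. The list of creatine and calcium cycle genes was mixed, with 6 of 11 tested called higher and 4 lower (median log2 change 0.56), and it rests in part on warm replicate 2, the library with muscle transcripts: without it 4 rose and 4 fell (median -0.68). Without room-temperature replicate 2, 3 rose. The genes of creatine handling did not all move one way. Ckb, the creatine kinase of the proposed creatine cycle, measured 35.3, 25.04, 20.9 and 40.003 CPM and 79.7, 71.9, 119.8 and 111 CPM, with no overlap (log2 change 1.66 ± 0.24, adjusted p = 2.8e-05). The creatine transporter Slc6a8 and the synthetic enzymes Gamt and Gatm rose less (log2 changes 0.50 ± 0.11, 1.02 ± 0.25 and 0.56 ± 0.196, adjusted p = 6.4e-04, 0.0016 and 0.019; 0.067 for Gatm without room-temperature replicate 2). Alpl, a phosphatase of the proposed creatine cycle, fell from 22.3 ± 2.29 to 14.7 ± 4.03 CPM (log2 change -0.60 ± 0.22, adjusted p = 0.023), and was not called with totals only (adjusted p = 0.29), without room-temperature replicate 1 (0.059) or without warm replicate 3 (0.061). Ckmt2, a mitochondrial creatine kinase of muscle, was at 1.45, 0, 0 and 0 CPM and 0, 20.03, 0 and 0 CPM and was not called (adjusted p = 0.13), with most of its counts in the library with muscle transcripts. Atp2a2, the calcium pump of the calcium cycle, fell from 269.6 ± 24.3 to 81.9 ± 11.1 CPM (log2 change -1.72 ± 0.11, adjusted p = 1.8e-09). Pm20d1, an enzyme that makes uncoupling N-acyl amino acids, fell from 40.6 ± 2.25 to 10.6 ± 2.34 CPM (log2 change -1.93 ± 0.16, adjusted p = 2.5e-08). Gk, glycerol kinase, which re-esterifies glycerol within fat, measured 289, 420.3, 373 and 307 CPM and 11.4, 26.04, 26.04 and 132 CPM. Its warm libraries ranged over more than an order of magnitude, with replicate 4 highest (log2 change -2.83 ± 0.75, adjusted p = 0.0052; without replicate 4 the log2 fold change was -4.03).

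Genes of fat synthesis had the lowest median of all lists, -2.13, with 16 of 19 tested de novo lipogenesis genes lower and 1 higher. Fasn, fatty acid synthase, measured 22142, 21389, 17703 and 23843 CPM at room temperature and 2169, 1892, 337 and 321 CPM at 29 °C. All warm libraries lay far below the room-temperature range, and within the warm group replicates 1 and 2 lay well above replicates 3 and 4 (log2 change -4.17 ± 0.597, adjusted p = 4.6e-05). Scd1, the desaturase that makes oleate, was also higher in warm replicates 1 and 2 than in 3 and 4, with 33954, 40652, 30293 and 30619.7 CPM at room temperature and 9457, 9528, 2405 and 3585 CPM at 29 °C (log2 change -2.44 ± 0.42, adjusted p = 1.7e-04). Elovl6, which elongates the product of Fasn, was at 889.6, 917, 804 and 951 CPM and 74.2, 80.6, 39.2 and 43.5 CPM, again with warm replicates 1 and 2 above 3 and 4 (log2 change -3.91 ± 0.22, adjusted p = 1.3e-09). Slc25a1, which exports citrate for the pathway, fell to 13.7% of its level, and Acsl5, which activates fatty acids, to 8.77% (log2 changes -2.87 ± 0.26 and -3.51 ± 0.22, adjusted p = 3.5e-07 and 3.6e-09). The member that rose was Fads1, the delta-5 desaturase of polyunsaturated fatty acids, from 13.8 ± 2.45 to 34.97 ± 5.54 CPM (log2 change 1.34 ± 0.21, adjusted p = 4.6e-05).

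Genes that build and coat lipid droplets fell in 18 of 22 tested and rose in 2 (median log2 change -1.51). Gpam, which starts triglyceride synthesis, measured 542, 705, 549.6 and 629 CPM and 117, 118, 119 and 133 CPM (log2 change -2.32 ± 0.12, adjusted p = 3.1e-10). Bscl2, or seipin, which shapes nascent droplets, fell from 234 ± 8.07 to 60.7 ± 6.58 CPM, and Plin1, the droplet coat that gates lipolysis, from 666 ± 24.2 to 159 ± 29.1 CPM (log2 changes -1.95 ± 0.1003 and -2.07 ± 0.13, adjusted p = 4.0e-10 and 1.4e-09). The suppliers of glycerol phosphate fell as well. Gpd1 went from 10457 ± 1063 to 2363 ± 229 CPM, and Pck1, which makes the glycerol backbone from pyruvate, from 5910.4 ± 996 to 979.8 ± 159 CPM (log2 changes -2.15 ± 0.13 and -2.59 ± 0.29, adjusted p = 1.3e-09 and 2.1e-06).

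Uptake of lipid from the blood gave opposite changes at its successive steps. Of 18 genes tested, 10 fell and 4 rose (7 and 6 with totals only; median log2 change -0.44). Lpl, lipoprotein lipase, which the adipocyte makes, measured 6159.96, 5707, 6203 and 6005 CPM and 1248, 1349, 1988 and 1670.3 CPM, 25.98% of the room-temperature mean (log2 change -1.94 ± 0.19, adjusted p = 1.5e-07). Gpihbp1, the endothelial protein that carries and anchors that enzyme on the capillary wall, rose from 43.3, 43.6, 49.7 and 56.5 CPM to 220.4, 213, 263 and 286 CPM (log2 change 2.35 ± 0.13, adjusted p = 5.1e-10). Angptl4, which inhibits lipoprotein lipase, rose from 301 ± 33.2 to 492 ± 48.5 CPM (log2 change 0.71 ± 0.12, adjusted p = 5.2e-05). Endothelial markers rose together with Gpihbp1, as given further on, and their part in its rise was not tested.

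Transcripts for sugar use fell along with those for fat synthesis. Of 21 genes of glucose uptake and glycolysis, 20 fell and 1 rose (median log2 change -1.60). Pgk1 measured 1227, 1174, 1114 and 1322 CPM and 353, 323, 319.9 and 335 CPM (log2 change -1.86 ± 0.09, adjusted p = 2.4e-10), and Pfkl, the liver-type phosphofructokinase, fell to 25.1% of its level (log2 change -1.99 ± 0.12, adjusted p = 1.8e-09). Aldoa, aldolase A, was at 5135, 4845, 4096 and 5668 CPM and 1692, 1552, 894 and 947 CPM and, as for Fasn, warm replicates 1 and 2 lay above 3 and 4 (log2 change -1.96 ± 0.199, adjusted p = 3.4e-07). Mpc2, which brings pyruvate into mitochondria, fell to 19.6% (log2 change -2.35 ± 0.11, adjusted p = 2.0e-10). The gene that rose was Slc2a1, the basal glucose transporter of many cell types including endothelium, from 5.94 ± 0.763 to 10.3 ± 3.57 CPM (log2 change 0.79 ± 0.19, adjusted p = 0.0016).

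Glycogen genes fell in 14 of 20 tested and rose in 3 (13 and 5 with totals only; median log2 change -1.62). Gbe1, the branching enzyme, fell from 422 ± 31.4 to 72.1 ± 7.44 CPM and Gys1, glycogen synthase, from 304 ± 13.7 to 81.5 ± 5.35 CPM (log2 changes -2.55 ± 0.13 and -1.90 ± 0.11, adjusted p = 3.1e-10 and 1.1e-09). Ppp1r3g, a subunit that targets a phosphatase to glycogen, was low even at room temperature, at 2.36, 4.08, 2.31 and 2.73 CPM, and was at 0, 0.133, 0.242 and 0.202 CPM in the warm (log2 change -4.28 ± 0.52, adjusted p = 2.0e-06). In the pentose phosphate pathway, the source of NADPH for fat synthesis, 7 of 8 genes fell and 1 rose (median log2 change -1.72), with G6pdx, its first enzyme, at 285, 301, 234 and 320.2 CPM and 53.8, 56.6, 43.3 and 44.2 CPM (log2 change -2.53 ± 0.17, adjusted p = 6.3e-09). Cholesterol synthesis genes fell in 14 of 22 tested and rose in 1 (11 and 3 with totals only; median log2 change -0.90), for example Acat2 to 28.7% of its level (log2 change -1.80 ± 0.14, adjusted p = 1.2e-08).

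Genes of mitochondrial pathways fell in most cases. The tricarboxylic acid cycle with pyruvate dehydrogenase had 17 of 18 genes lower and 1 higher (median log2 change -1.29). Ogdh measured 2573, 2798, 2492 and 2551 CPM and 809, 793, 749 and 748 CPM, and the warm libraries lay within a narrow band (log2 change -1.75 ± 0.09, adjusted p = 5.0e-10). Pdha1, the catalytic subunit of pyruvate dehydrogenase, fell to 25.6% of its level (log2 change -1.96 ± 0.11, adjusted p = 9.0e-10). Idh2, the NADP-linked mitochondrial isocitrate dehydrogenase, went the other way, from 248, 259, 266 and 249 CPM to 495, 499, 521 and 435 CPM with no overlap (log2 change 0.93 ± 0.099, adjusted p = 4.6e-07).

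Fatty acid oxidation fell in 24 of 27 genes tested (median log2 change -1.20). Hadha, the trifunctional protein's alpha subunit, measured 2103, 2363, 2118 and 2122 CPM and 463, 452, 462 and 428 CPM (log2 change -2.27 ± 0.11, adjusted p = 2.4e-10), and Cpt2, the inner-membrane carnitine palmitoyltransferase, fell to 26.8% (log2 change -1.90 ± 0.11, adjusted p = 9.0e-10). The 1 member called higher, Cpt1a, the liver-type outer-membrane transferase, changed by 0.26 ± 0.11 on the log2 scale (adjusted p = 0.047) and lost its call in 14 of 20 alternative settings, among them without room-temperature replicate 1, 2 or 4 or warm replicate 1, 2 or 4 (adjusted p = 0.053 to 0.17). Branched-chain amino acid breakdown, another fuel route of brown fat, fell in 15 of 17 and rose in none (median log2 change -1.29). All 14 mitochondrial chaperones and proteases tested fell (median log2 change -0.98), among them Hspa9, the main import chaperone, and its partner Dnaja3, which fell to 36.8% and 24.5% of their levels (log2 changes -1.44 ± 0.1001 and -2.03 ± 0.104, adjusted p = 4.8e-09 and 4.0e-10). Of 19 genes of mitochondrial dynamics and DNA upkeep, 16 fell and 1 rose (median log2 change -1.01), with Tfam, the packaging factor of mitochondrial DNA, going from 56.7 ± 3.56 to 19.6 ± 1.197 CPM and Opa1, the inner-membrane fusion protein, from 273 ± 13.4 to 80.4 ± 5.101 CPM (log2 changes -1.53 ± 0.09 and -1.77 ± 0.104, adjusted p = 1.6e-09 and 1.1e-09). Mitochondrial ribosomal proteins fell in 20 of 25 and rose in 2 (16 and 4 with totals only; median log2 change -0.96), with Mrps2 at 122, 115, 106 and 124 CPM and 41.8, 40.4, 43.9 and 41.4 CPM (log2 change -1.48 ± 0.08, adjusted p = 5.1e-10). Of 17 genes for coenzyme Q and cardiolipin synthesis, 13 fell and none rose (median log2 change -0.69).

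Genes of the respiratory chain itself fell less than those of the pathways that feed it, as medians, with no test of that difference. Of 41 nuclear-encoded subunits tested, 29 fell and 3 rose (median log2 change -0.53; 5 rose without warm replicate 4); with libraries scaled by totals only, 17 fell and 11 rose (median -0.16). The falls were large in Uqcrc2, a core subunit of complex III, from 1171 ± 50.7 to 345 ± 23.3 CPM, in Ndufs1 of complex I, from 666 ± 54.8 to 217 ± 5.47 CPM, and in Sdha of complex II, from 2267 ± 144 to 786 ± 43.1 CPM (log2 changes -1.76 ± 0.099, -1.62 ± 0.099 and -1.53 ± 0.11, adjusted p = 7.9e-10, 1.5e-09 and 4.8e-09). Ndufa2, a small accessory subunit of complex I, rose from 119, 125, 146 and 141 CPM to 265, 223, 259.6 and 216 CPM (log2 change 0.86 ± 0.097, adjusted p = 8.9e-07).

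The 13 protein genes of mitochondrial DNA did not move together. Of these, 2 rose and 5 fell, with a median log2 change of -0.20. With libraries scaled by totals only, 5 rose and 1 fell, with a median of 0.10. ND1, a complex I subunit, measured 26363, 25518, 25964 and 29035 CPM and 15421, 13026, 12021 and 22190.2 CPM, whereas COX1, a cytochrome oxidase subunit, measured 60600.5, 68309.8, 72802 and 71053 CPM and 99382, 85800.000000, 81905 and 149977 CPM. Among the warm libraries both genes were highest in replicate 4, neither overlapped between the groups, and their changes had opposite signs (log2 changes -0.77 ± 0.16 and 0.61 ± 0.16, adjusted p = 3.5e-04 and 0.0031); without replicate 4 they were -0.98 and 0.39. Without that library 8 of the 13 fell and 1 rose (median -0.51), and the number that fell was 3 without room-temperature replicate 4, 2 without warm replicate 2 and 1 without warm replicate 3.

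Insulin signalling genes fell in 13 of 22 tested and rose in 4 (median log2 change -0.59), and with libraries scaled by totals only 9 fell and 8 rose (median -0.23). Insr, the insulin receptor, fell from 132 ± 5.34 to 59.2 ± 7.79 CPM, and Irs1, its docking protein, from 91.1 ± 17.7 to 13.4 ± 3.19 CPM (log2 changes -1.15 ± 0.105 and -2.76 ± 0.24, adjusted p = 8.4e-08 and 1.6e-07). Irs2, the second docking protein, was at 77.2, 105, 69.5 and 64.6 CPM and 2.29, 3.29, 9.68 and 2.34 CPM, with warm replicate 3 highest and still far below room temperature (log2 change -4.16 ± 0.69, adjusted p = 2.0e-04; -4.89 without that library). Mtor, the growth kinase downstream, fell to 25.3% of its level (log2 change -1.98 ± 0.13, adjusted p = 3.7e-09). Grb10, an adaptor that restrains the insulin receptor, rose from 10.4 ± 0.76 to 33.4 ± 5.56 CPM (log2 change 1.69 ± 0.12, adjusted p = 5.6e-09). Among glucocorticoid-responsive genes 6 of 15 rose and 4 fell, close to the shares of all genes. Hsd11b1, which regenerates active glucocorticoid, measured 162, 176, 145 and 167 CPM and 12.3, 15.8, 6.33 and 7.91 CPM, 6.53% of the room-temperature mean (log2 change -3.93 ± 0.299, adjusted p = 8.0e-08).

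**Figure D2:**
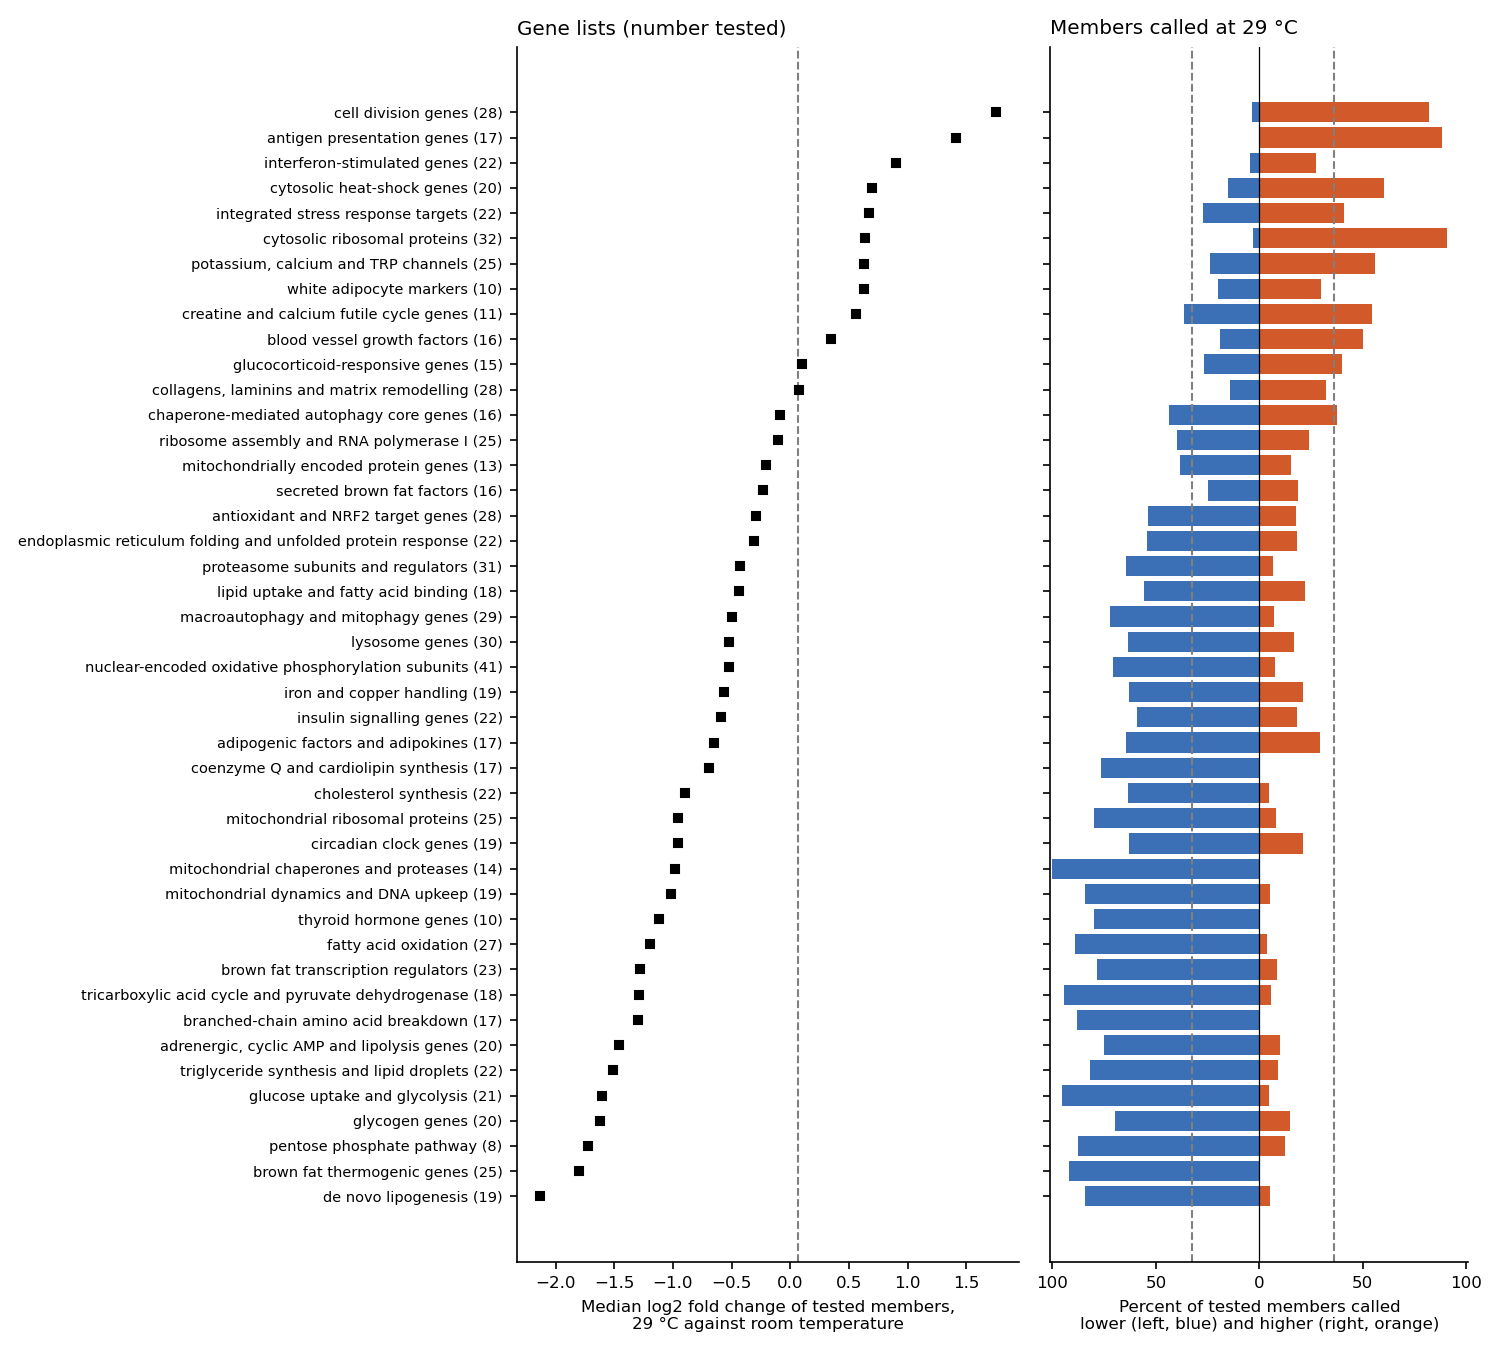
Left, median log2 change of the tested members of each gene list, lists of other cell types aside, at 29 °C against room temperature in WT, with the number tested in brackets and a dashed line at the median of all genes (0.06). Right, percent of tested members called lower (blue) and higher (orange), with dashed lines at the shares of all genes called lower (32.8%) and higher (35.9%); de novo lipogenesis and thermogenic genes lie lowest, and cell division and antigen presentation genes highest among the lists drawn.

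The molecular clock differed between the housing groups in opposite directions for its activator and its output. Of 19 clock genes tested, 12 fell and 4 rose (11 and 6 with totals only; median log2 change -0.96). Arntl, also called Bmal1, the activator that peaks in antiphase to its targets, measured 4.38, 3.39, 5.67 and 4.503 CPM at room temperature and 22.6, 26.2, 25.3 and 28.4 CPM at 29 °C. Dbp, a target of that activator and itself the activator at D-box motifs, measured 59.4, 47.8, 37.5 and 66.2 CPM and 3.68, 1.99, 1.73 and 1.98 CPM. Neither gene overlapped between the groups, and Arntl was 5.704-fold higher in the warm where Dbp was 22.4-fold lower (log2 changes 2.51 ± 0.25 and -4.49 ± 0.4005, adjusted p = 5.1e-07 and 4.9e-07). Tef and Hlf, the related D-box activators, fell from 177 ± 16.9 to 71.2 ± 4.97 CPM and from 33.1 ± 1.96 to 9.73 ± 1.96 CPM (log2 changes -1.32 ± 0.13 and -1.77 ± 0.19, adjusted p = 2.9e-07 and 9.6e-07). Nr1d1 and Nr1d2, the repressors of Arntl, fell to 11.7% and 23.9% of their levels (log2 changes -3.09 ± 0.34 and -2.07 ± 0.13, adjusted p = 3.9e-06 and 2.4e-09). Clock genes swing over each day, and the hour at which each group was collected is not stated in the labels, so housing and hour cannot be told apart for them. This limit holds for every other gene given here that varies over the day, and for the comparison with KO.

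The upstream sequences below are those of a pair of clock genes, chosen after their values were seen, that hold motifs of this circuit. Each holds the 250 bases before a RefSeq start site (GRCm38.p6), 5′ to 3′ on the gene's strand, with motif matches in capitals. For both genes this start site lies inside the gene's annotated span, and the window is the first listed that holds a match. Per3, a period gene at chr4:151044666-151044915, minus strand, holds the D-box TTATGTAA 2 times, starting 205 and 158 bases before the start site; Ciart, a repressor of the clock activator at chr3:95882229-95882478, minus strand, holds the E-box CACGTG 3 times, starting 116, 58 and 44 bases before it.
Per3: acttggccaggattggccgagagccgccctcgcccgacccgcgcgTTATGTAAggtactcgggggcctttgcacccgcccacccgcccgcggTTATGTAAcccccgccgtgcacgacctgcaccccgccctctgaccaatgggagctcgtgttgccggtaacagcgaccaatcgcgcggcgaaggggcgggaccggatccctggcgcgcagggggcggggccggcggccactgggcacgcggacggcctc
Ciart: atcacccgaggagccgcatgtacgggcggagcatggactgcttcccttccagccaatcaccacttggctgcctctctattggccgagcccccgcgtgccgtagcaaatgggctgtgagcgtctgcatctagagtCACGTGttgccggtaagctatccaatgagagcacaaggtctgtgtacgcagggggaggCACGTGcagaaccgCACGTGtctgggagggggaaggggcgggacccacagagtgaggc
On either strand the D-box occurs in 0.819% of 32851 mouse promoters of this length and in 1 of the 16 clock genes that have one listed. The E-box occurs in 6.02% of promoters and in 5 of the 16 (Bhlhe41, Ciart, Cry1, Per1 and Tef). Among these, Tef and Ciart were called lower and Per1 was not called. The changes of Bhlhe41 and Cry1 are not given here, and a link between motif and change was not tested. Per3 fell from 66.9, 51.97, 48.1 and 55.3 CPM to 21.2, 16.4, 12.8 and 9.97 CPM (log2 change -1.88 ± 0.21, adjusted p = 2.2e-06). Ciart measured 4.01, 5.197, 3.99 and 8.66 CPM and 2.88, 1.89, 1.902 and 2.38 CPM, a smaller fall with no overlap (log2 change -1.27 ± 0.295, adjusted p = 0.0012). A match is a description of letters, and binding was not measured.

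Cytosolic heat-shock genes rose in 12 of 20 tested and fell in 3 (14 and 1 with totals only; median log2 change 0.69); these encode chaperones that refold damaged proteins and are switched on by heat-shock factor 1. Hspa1a, an inducible Hsp70 gene, was at 3.72, 3.05, 1.39 and 1.73 CPM at room temperature and 126, 421, 241 and 429 CPM at 29 °C. Its neighbour Hspa1b was at 5.58, 4.94, 1.68 and 1.86 CPM and 109.8, 359, 181 and 461 CPM. The pair are nearly identical in sequence, so reads may be shared between them, and both were at low levels in all room-temperature libraries and high in all warm ones (log2 changes 6.94 ± 0.89 and 6.30 ± 0.9001, adjusted p = 2.5e-05 and 6.2e-05). Hspb1, a small heat-shock protein, rose from 88.5, 71.98, 80.3 and 69.5 CPM to 191, 267, 196 and 353 CPM (log2 change 1.70 ± 0.17, adjusted p = 2.8e-07). Dnaja1, a co-chaperone of Hsp70, rose from 155 ± 24.6 to 467 ± 197 CPM, and Cryab, another small chaperone, from 21.7 ± 4.12 to 93.1 ± 22.2 CPM (log2 changes 1.59 ± 0.28 and 2.10 ± 0.296, adjusted p = 1.8e-04 and 3.0e-05). Across the warm libraries the median of the list ran from 0.06 in replicate 1 to 1.17 in replicate 4, on a log2 scale against the room-temperature mean. Warm replicate 4 also had the highest mitochondrial share of counts, and the part of tissue handling or RNA quality in these levels was not tested.

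The heat-shock promoters shown hold the repeat below, the binding motif of heat-shock factor 1. Of the 5 heat-shock genes whose listed promoter holds it, 4 were called higher, against 12 of 20 in the whole list and 35.9% of all genes. Hspa1a and Hspa1b, which may share reads, are both among the 4. The part of heat-shock factor 1 in the rise was not tested. The fifth, Hspb6, was at 10.1, 10.3, 9.36 and 11.5 CPM and 5.13, 20.3, 4.29 and 3.51 CPM and was not called (log2 change -0.30 ± 0.51, adjusted p = 0.61). Without warm replicate 2, the library with muscle transcripts, Hspb6 was called lower (log2 change -1.25, adjusted p = 0.0026). Each again holds 250 bases before the start site (GRCm38.p6), 5′ to 3′ on the gene's strand, with the inverted repeat GAANNTTC in capitals: Hspa1a at chr17:34972157-34972406, minus strand, Hspb1 at chr5:135887669-135887918, plus strand, and Dnaja1 at chr4:40722218-40722467, plus strand.
Hspa1a: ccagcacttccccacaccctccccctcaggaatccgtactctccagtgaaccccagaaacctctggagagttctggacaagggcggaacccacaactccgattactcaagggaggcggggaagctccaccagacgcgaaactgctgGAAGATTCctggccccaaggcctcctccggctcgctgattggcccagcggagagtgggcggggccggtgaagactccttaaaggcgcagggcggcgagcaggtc
Hspb1: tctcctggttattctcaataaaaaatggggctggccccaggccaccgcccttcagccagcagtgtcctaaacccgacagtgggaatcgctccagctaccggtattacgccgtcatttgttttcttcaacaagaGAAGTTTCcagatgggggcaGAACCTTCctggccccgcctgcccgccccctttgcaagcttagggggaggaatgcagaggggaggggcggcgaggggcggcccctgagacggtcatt
Dnaja1: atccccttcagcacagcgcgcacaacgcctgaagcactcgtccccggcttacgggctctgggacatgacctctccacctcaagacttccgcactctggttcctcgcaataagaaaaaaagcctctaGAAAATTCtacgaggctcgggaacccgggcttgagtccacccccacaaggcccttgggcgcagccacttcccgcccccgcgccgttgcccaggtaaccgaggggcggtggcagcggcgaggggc
The motif starts 104 bases before the start site in Hspa1a, 117 and 97 bases in Hspb1, and 124 bases in Dnaja1. The window of Hspa1b (chr17:34959239-34959488, minus strand) has the same match and is identical to that of Hspa1a at 247 of 250 bases. The repeat reads the same on both strands, occurs in 6.69% of the 32851 promoters, and was present in 5 of the 14 heat-shock genes with a listed promoter (Dnaja1, Hspa1a, Hspa1b, Hspb1 and Hspb6).

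**Figure D3:**
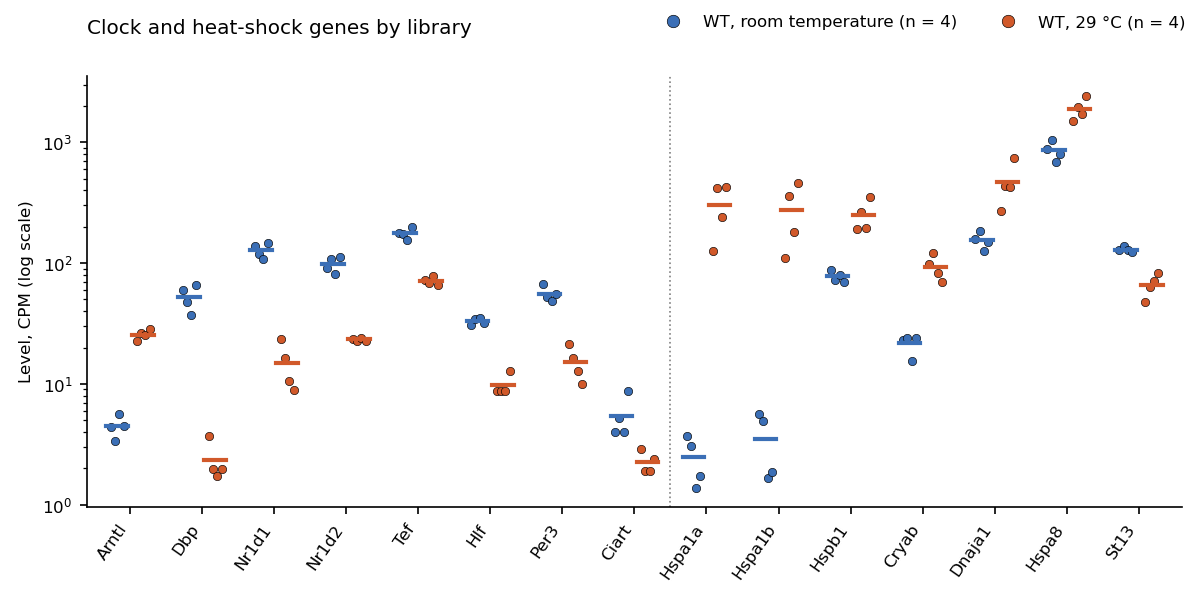
Level of clock genes (left of the dotted line) and heat-shock genes (right) in each WT library, in CPM on a log axis, at room temperature (blue) and 29 °C (orange); points are libraries in replicate order and bars are group means (n = 4). Arntl is higher and the other clock genes lower in all warm libraries; Hspa1a and Hspa1b go from under 6 CPM to over 100 CPM, and St13 is lower.

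Other protein quality pathways were split. Hspa8, the constitutive Hsp70 that serves chaperone-mediated autophagy, rose from 882, 1052, 691 and 799 CPM to 1509, 1943, 1730.1 and 2429.8 CPM, while its partner St13 fell from 129.6 ± 6.57 to 66.1 ± 14.7 CPM (log2 changes 1.15 ± 0.18 and -0.97 ± 0.13, adjusted p = 3.2e-05 and 7.2e-06). Lamp2, whose splice form Lamp2a is the lysosomal receptor of that pathway, measured 166, 177, 180.2 and 155 CPM and 76.4, 88.8, 99.2 and 106 CPM over all its splice forms (log2 change -0.87 ± 0.11, adjusted p = 2.9e-06). Of the 16 core genes of chaperone-mediated autophagy, 6 rose and 7 fell (median log2 change -0.09), and with libraries scaled by totals only 8 rose and 4 fell (median 0.26). Lysosome genes fell in 19 of 30 and rose in 5 (14 and 8 with totals only; median log2 change -0.52, and -0.17 with totals only), with Ctsb, a protease, going from 1806 ± 126 to 555 ± 56.3 CPM and Npc1, a cholesterol exporter, from 65.2 ± 2.78 to 20.5 ± 4.02 CPM (log2 changes -1.70 ± 0.11 and -1.67 ± 0.12, adjusted p = 2.4e-09 and 7.2e-09). Macroautophagy and mitophagy genes fell in 21 of 29 and rose in 2 (median log2 change -0.49), and proteasome genes fell in 20 of 31 and rose in 2 (median log2 change -0.43). With libraries scaled by totals only, 14 and 5 of the first list fell and rose (median -0.14), and 12 and 7 of the second (median -0.07).

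Genes of protein synthesis and stress followed other courses. Cytosolic ribosomal proteins rose in 29 of 32 tested and fell in 1 (median log2 change 0.64), for example Rpl13 from 204, 193, 204 and 218 CPM to 400.2, 367, 475 and 389 CPM (log2 change 0.99 ± 0.09, adjusted p = 6.8e-08). Ribosome assembly genes were mixed, with 6 of 25 higher and 10 lower (6 lower without room-temperature replicate 3; median log2 change -0.10). With totals only 12 were higher and 3 lower (median 0.24). Targets of the integrated stress response were also mixed, with 9 of 22 higher and 6 lower (13 and 4 with totals only). Among them Phgdh, the first enzyme of serine synthesis, rose from 6.87, 5.497, 5.92 and 8.62 CPM to 47.1, 44.9, 35.96 and 32.1 CPM, and the stress regulator Nupr1 from 11.05 ± 2.03 to 36.8 ± 7.58 CPM (log2 changes 2.57 ± 0.34 and 1.74 ± 0.198, adjusted p = 2.0e-05 and 1.6e-06). Antioxidant and NRF2 target genes fell in 15 of 28 and rose in 5 (median log2 change -0.29), and genes of endoplasmic reticulum folding fell in 12 of 22 and rose in 4 (median -0.31). With libraries scaled by totals only 9 fell and 10 rose in the first (median 0.05), and 2 fell and 8 rose in the second (median 0.04). Iron and copper handling genes fell in 12 of 19 and rose in 4 (7 and 5 with totals only; median -0.56), and channel genes rose in 14 of 25 and fell in 6 (median 0.63).

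General adipocyte genes fell and white fat genes moved both ways. Adipogenic factors and adipokines fell in 11 of 17 and rose in 5 (7 and 5 with totals only; median log2 change -0.65). Adipoq, which encodes adiponectin, measured 782 ± 87.7 and 499.5 ± 67.3 CPM, and Pparg, the master regulator of adipocytes, 238 ± 15.3 and 141 ± 40.96 CPM (log2 changes -0.65 ± 0.12 and -0.75 ± 0.17, adjusted p = 2.2e-04 and 0.0012). With totals only Adipoq was not called (log2 change -0.29, adjusted p = 0.060). Klf15, a factor of adipocyte metabolism, fell to 12.3% of its level (log2 change -3.03 ± 0.2003, adjusted p = 6.1e-09). Lep, the white fat hormone leptin, measured 36.8, 7.64, 7.77 and 8.92 CPM and 122, 140.4, 93.3 and 54.4 CPM. Room-temperature replicate 1 was well above its group mates, and all warm libraries were higher still (log2 change 2.74 ± 0.77, adjusted p = 0.0076; 3.66 without that library). Mest, an imprinted gene linked to fat cell enlargement, rose from 0.91, 0.558, 0.965 and 0.779 CPM to 15.1, 12.9, 13.6 and 8.56 CPM (log2 change 3.95 ± 0.37, adjusted p = 2.5e-07). Nnat, an imprinted gene higher in white than in brown fat, rose from 8.65, 7.73, 8.899 and 8.01 CPM to 133, 215, 457 and 178 CPM, with replicate 3 highest (log2 change 4.88 ± 0.45, adjusted p = 8.3e-07). The list of white adipocyte markers as a whole was mixed, with 3 of 10 higher, 2 lower and 5 not called (5 higher without room-temperature replicate 1, and 4 higher and 1 lower with totals only). The called members were Nnat, Lep, Tmem182, Serpina3k and Retn. Log2 changes of the tested members ran from -5.64 to 4.88, so the largest fall was larger than the largest rise.

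Factors secreted by brown fat were called less often than all genes (35.9% higher and 32.8% lower), with 3 of 16 higher (18.8%) and 4 lower (25%). Without warm replicate 3, 5 were higher, and with totals only 6 were higher and 2 lower. Their median log2 change of -0.23 turned to 0.10 without room-temperature replicate 3. Vegfa, the vessel growth factor, fell from 486, 543, 434 and 482 CPM to 353, 329.8, 311 and 287 CPM (log2 change -0.60 ± 0.13, adjusted p = 7.4e-04, and not called with libraries scaled by totals only, adjusted p = 0.13). Nrg4, a neuregulin released by brown fat, fell from 94.8 ± 13.6 to 41.9 ± 6.76 CPM (log2 change -1.18 ± 0.14, adjusted p = 1.4e-06). Bmp8b, which sensitises brown fat to adrenergic drive, was at 1.1997, 0.601, 0.882 and 1.69 CPM at room temperature and was detected in only 1 warm library, at 0.0332 CPM, which is 1 count (adjusted p = 2.4e-06). Gdf15, a stress hormone, was low everywhere, at 0.29, 0.0429, 0.168 and 0.173 CPM and 2.74, 1.53, 1.56 and 0.848 CPM (log2 change 3.27 ± 0.67, adjusted p = 6.4e-04). Fgf21 overlapped between the groups, at 0.124, 0.515, 0.042 and 0 CPM and 1.46, 0.897, 0.104 and 0.161 CPM, and was not called (adjusted p = 0.084). It was called when room-temperature replicate 2 was left out (adjusted p = 0.015), warm replicate 3 (0.036) or warm replicate 4 (0.048).

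Transcripts of other cell types took a larger share of the warm tissue. All 14 endothelial markers rose (median log2 change 1.53), and their summed level went from 746.1 ± 76.2 to 2118 ± 259 CPM (mean ± SD, n = 4 each; two-sided exact permutation test, p = 0.0286, the smallest possible). Egfl7, a protein secreted by endothelium, measured 30.6, 29.98, 35.8 and 44.2 CPM and 180.4, 142, 161 and 158 CPM, and Esam, an endothelial adhesion molecule, 37.2 ± 3.601 and 171 ± 23.6 CPM (log2 changes 2.19 ± 0.14 and 2.20 ± 0.15, adjusted p = 2.1e-09 and 3.0e-09). Among vessel growth factors and their receptors 8 of 16 rose and 3 fell (8 and 1 with totals only). Dll4, the Notch ligand of sprouting tips and arteries, rose from 8.85 ± 1.67 to 51.1 ± 10.4 CPM (log2 change 2.53 ± 0.15, adjusted p = 1.2e-09). Pgf, placental growth factor, which binds Vegf receptor 1, was at 0.165, 0.0429, 0.42 and 0.26 CPM and 10.9, 14.2, 18.1 and 16.99 CPM, so that it was close to absent at room temperature (log2 change 6.05 ± 0.49, adjusted p = 6.2e-08). The summed endothelial level and Vegfa thus moved in opposite directions.

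Stromal and immune markers rose too. Fibroblast and preadipocyte markers rose in 10 of 13 tested and fell in none, and their sum went from 934.2 ± 92.4 to 1580.2 ± 281 CPM (two-sided exact permutation test, p = 0.0286). Dpt, a matrix protein of fibroblasts, measured 29.8 ± 4.66 and 105 ± 19.6 CPM and Cd34, a marker of endothelium and preadipocytes, 22.9 ± 4.02 and 95.4 ± 7.73 CPM (log2 changes 1.82 ± 0.198 and 2.06 ± 0.17, adjusted p = 1.2e-06 and 3.5e-08). Matrix genes themselves, with 9 of 28 higher and 4 lower (15 and 2 with totals only), lay near the share of all genes that rose. Macrophage markers rose in 17 of 19 and fell in none (median log2 change 1.48), and their sum went from 98.8 ± 20.7 to 304.8 ± 51.0 CPM (two-sided exact permutation test, p = 0.0286). Itgax, or Cd11c, was at 0.331, 0.558, 0.504 and 0.303 CPM and 2.95, 4.62, 4.67 and 3.27 CPM, Trem2, a lipid sensor of fat-associated macrophages, at 0.331, 0.0429, 0.336 and 0.173 CPM and 2.39, 3.19, 5.602 and 4.88 CPM, and the macrophage elastase Mmp12 at 0.207, 0.0859, 0.168 and 0.173 CPM and 4.02, 6.81, 14.8 and 12.3 CPM. All 3 were under 1 CPM in every room-temperature library and above 2 CPM in every warm one (log2 changes 3.18 ± 0.33, 4.15 ± 0.54 and 5.86 ± 0.63, adjusted p = 3.2e-07, 6.9e-06 and 2.6e-06).

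Antigen presentation genes rose in 15 of 17 and fell in none (median log2 change 1.42). H2-K1, a class I heavy chain, measured 313 ± 37.9 and 652 ± 58.5 CPM, and Cd74, the invariant chain of class II, 65.2 ± 11.01 and 213 ± 34.8 CPM (log2 changes 1.06 ± 0.15 and 1.71 ± 0.28, adjusted p = 7.8e-06 and 9.3e-05). Interferon-stimulated genes did not stand above the background, with 6 of 22 higher and 1 lower (3 higher without room-temperature replicate 2, and 11 higher and none lower with totals only), although their median was 0.90. Lymphocyte markers were scarce, with a sum of 5.32 ± 0.489 CPM at room temperature and 12.3 ± 0.427 CPM at 29 °C (two-sided exact permutation test, p = 0.0286), and 8 of 16 tested rose (5 without room-temperature replicate 1 or 2). Foxp3, the regulatory T cell factor, was at 0.0827, 0.0859, 0.168 and 0.13 CPM and 0.624, 0.432, 0.795 and 0.807 CPM (log2 change 2.46 ± 0.48, adjusted p = 2.6e-04). Neutrophil and mast cell markers rose in 7 of 8, but their sum overlapped between the groups (19.0 ± 5.89 and 36.2 ± 12.1 CPM, two-sided exact permutation test, p = 0.057). Mural cell markers, with 5 of 12 higher and 3 lower (6 and 1 with totals only), summed to 650.7 ± 55.7 and 816.8 ± 110.4 CPM (two-sided exact permutation test, p = 0.057).

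Red blood cell markers, mainly globins, rose in all 7 tested, from a sum of 983.1 ± 225.3 to 4549 ± 1443 CPM (two-sided exact permutation test, p = 0.0286). Hbb-bs, a beta globin, measured 383, 497, 278 and 345 CPM and 2477, 2848, 1473 and 1966 CPM (log2 change 2.54 ± 0.26, adjusted p = 6.8e-07). The red blood cell, endothelial and macrophage sums were all higher in the warm group, but within it they ranked the libraries differently. In warm replicates 1 to 4 the red blood cell sums were 5297, 6060, 2766 and 4072 CPM. Endothelial sums were 2146, 2131, 1783 and 2414 CPM, and macrophage sums 234, 306, 325 and 354 CPM. The part of blood in the endothelial and immune rise was not tested.

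Skeletal muscle markers rose in 11 of 18 tested, and of the WT libraries only warm replicate 2 had a high summed level. Acta1, skeletal actin, measured 0.165, 0.0429, 0.21 and 0.173 CPM at room temperature and 0.763, 199, 0.553 and 0.605 CPM at 29 °C, where replicate 2 alone exceeded 1 CPM. The thin-filament protein Tnnc2 was at 0.0414, 0.129, 0.042 and 0.13 CPM and 0.347, 122, 1.14 and 0.726 CPM, and the giant protein Neb at 0.786, 0.387, 0.504 and 0.649 CPM and 1.49, 48.1, 4.36 and 3.07 CPM, again highest in replicate 2. For these 3 genes the other warm libraries also lay above every room-temperature library. The summed level of the list was 1841 CPM in that library and 43.2 to 66.2 CPM in the other 3 warm libraries, against 39.7 to 67.0 CPM at room temperature (two-sided exact permutation test, p = 0.37). Without room-temperature replicate 1, 2, 3 or 4, 7, 5, 7 and 4 muscle markers were called higher. Without warm replicate 2 none of the muscle markers was called. Acta1, Tnnc2 and Neb then had log2 changes of 2.09, 3.06 and 2.35 (adjusted p = 0.44, 0.18 and 0.062). That fit still held warm KO replicates 2 and 3, with muscle sums of 669 and 1988 CPM, and they enter its estimate of spread. With those libraries left out as well, Acta1, Tnnc2 and Neb were called higher. Myh4, a fast myosin gene that is expressed in muscle fibres, had 0 counts in every WT library except warm replicate 2.

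**Figure D4:**
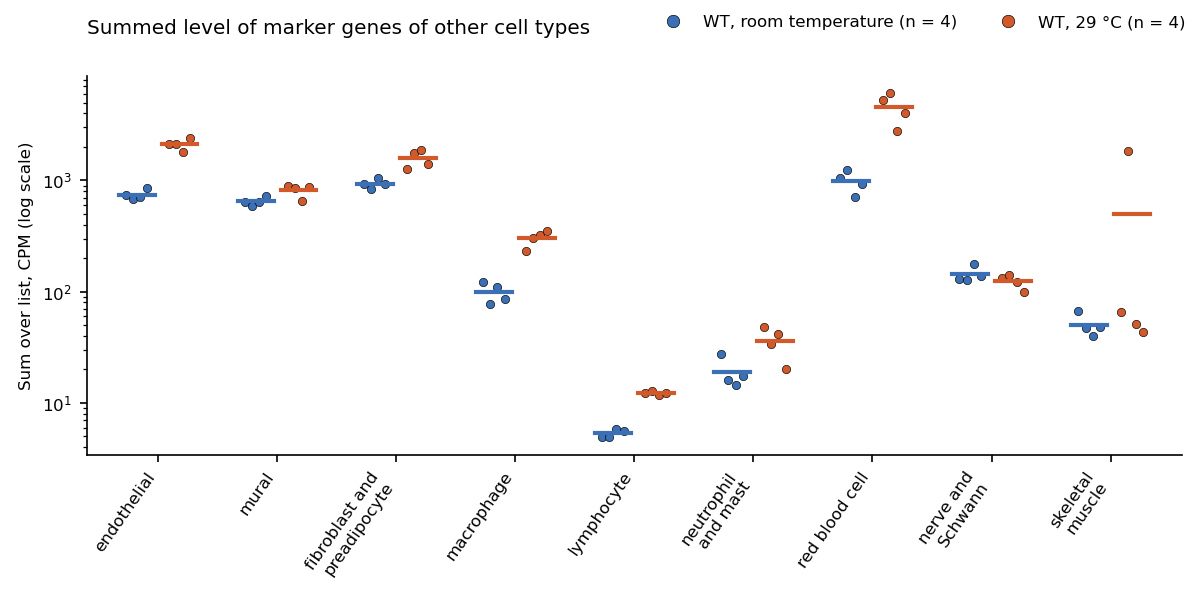
Summed level of marker genes of other cell types in each WT library, in CPM on a log axis, at room temperature (blue) and 29 °C (orange); points are libraries in replicate order and bars are group means (n = 4). Endothelial, fibroblast, macrophage, lymphocyte and red blood cell sums do not overlap between the groups, and the muscle sum is high in warm replicate 2 only (1841 CPM).

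Cell division genes had the highest median among the lists of cell processes, 1.75, with 23 of 28 tested higher and 1 lower. Mki67, the proliferation marker, measured 0.91, 0.515, 0.462 and 0.866 CPM and 10.4, 12.2, 10.4 and 6.66 CPM (log2 change 3.84 ± 0.39, adjusted p = 6.4e-07). Cdk1, the mitotic kinase, was at 0.29, 0.129, 0.126 and 0.13 CPM and 2.29, 2.76, 2.21 and 1.695 CPM (log2 change 3.69 ± 0.38, adjusted p = 3.2e-07). Both remained low in absolute terms. Ccnd1, cyclin D1, which acts at entry into the cycle, rose from 9.88 ± 1.15 to 58.3 ± 11.7 CPM (log2 change 2.56 ± 0.19, adjusted p = 1.8e-08). Which cells divide cannot be read from bulk tissue.

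The genes with the most extreme changes by the naming rule included several outside the lists above. Aspg, an asparaginase-like enzyme, fell from 355, 322, 328 and 466 CPM to 2.601, 3.82, 9.37 and 2.66 CPM, or 1.25% of its level (log2 change -6.31 ± 0.44, adjusted p = 5.4e-08; -6.91 without warm replicate 3). Pim1, a kinase induced by cytokine signals, fell from 207 ± 39.9 to 8.31 ± 1.53 CPM, and Slc4a4, a sodium bicarbonate cotransporter, from 320.2 ± 60.8 to 13.8 ± 2.14 CPM (log2 changes -4.64 ± 0.304 and -4.53 ± 0.36, adjusted p = 1.9e-08 and 1.8e-07). The 3 were well expressed at room temperature and stayed under 20 CPM in each warm library. Rgs7, a regulator of G protein signalling, had the smallest p of all genes, at 65.8, 68.6, 61.9 and 64.2 CPM and 6.001, 7.87, 6.78 and 6.22 CPM (log2 change -3.28 ± 0.13, adjusted p = 1.2e-10). Hyal1, a lysosomal hyaluronidase, fell to 8.13% of its level, Letm1, a cation exchanger of the inner mitochondrial membrane, to 16.8%, and Gpd2, the mitochondrial glycerol phosphate dehydrogenase, to 13.5% (log2 changes -3.62 ± 0.15, -2.57 ± 0.11 and -2.89 ± 0.13, adjusted p = 1.2e-10, 1.2e-10 and 1.6e-10).

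At the other end, Akr1cl, a member of the aldo-keto reductase family, had 0 counts in every room-temperature library and 8.67, 9.93, 2.94 and 4.84 CPM at 29 °C, at least 207.5-fold higher against a floor of 3 counts over the room-temperature group (adjusted p = 1.7e-05). Cpne9, a copine that binds membranes in response to calcium, rose from 0.0414, 0.172, 0.084 and 0.13 CPM to 6.14, 6.44, 13.1 and 4.96 CPM (log2 change 6.12 ± 0.41, adjusted p = 3.6e-09). Prnd, which encodes the prion-like protein doppel, rose from 0.248, 0.472, 0.756 and 0.563 CPM to 29.8, 27.97, 19.5 and 21.6 CPM (log2 change 5.59 ± 0.51, adjusted p = 4.8e-07). Fras1, a basement membrane protein, rose from 0.29, 0.172, 0.21 and 0.39 CPM to 14.2, 11.5, 7.71 and 10.7 CPM (log2 change 5.35 ± 0.2999, adjusted p = 7.6e-10). Each was under 1 CPM in all room-temperature libraries and present in all 4 warm ones.

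The housing effect in WT was then set against that in KO, with a test of the difference itself. The 2 effects share no libraries. Over all genes tested, 4272 (28.3%) had effects that differed at an adjusted p under 0.05; among the 10375 genes called in WT the number was 3866 (37.3%). Of those 3866 genes, 2741 had an estimate in KO of the same sign and smaller size, whether or not it was called in KO. Such genes were chosen by their change in WT, which favours a larger value there. Ucp1 changed by -3.08 in WT and 0.05 in KO on the log2 scale, a difference of 3.12 ± 0.32 (adjusted p = 1.8e-05). Dbp changed by -4.49 in WT and 0.32 in KO (difference 4.80 ± 0.52, adjusted p = 6.2e-05), and Arntl by 2.51 and -1.14 (difference -3.65 ± 0.37, adjusted p = 2.0e-05). The median of the 19 de novo lipogenesis genes was -2.13 in WT and -2.14 in KO, and 4 of the 19 had effects that differed. Among these were Elovl6 (difference 0.92 ± 0.28, adjusted p = 0.024) and Fads1 (difference -1.18 ± 0.31, adjusted p = 0.01). Fasn changed by -4.17 in WT and -3.77 in KO, and the difference of 0.40 ± 0.77 was not called (adjusted p = 0.74). Hspa1a rose in both, by 6.94 and 2.96 (difference -3.98 ± 1.16, adjusted p = 0.024). Gdf15 rose more in KO, by 6.98 against 3.27 (difference 3.70 ± 1.13, adjusted p = 0.026).

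**Figure D5:**
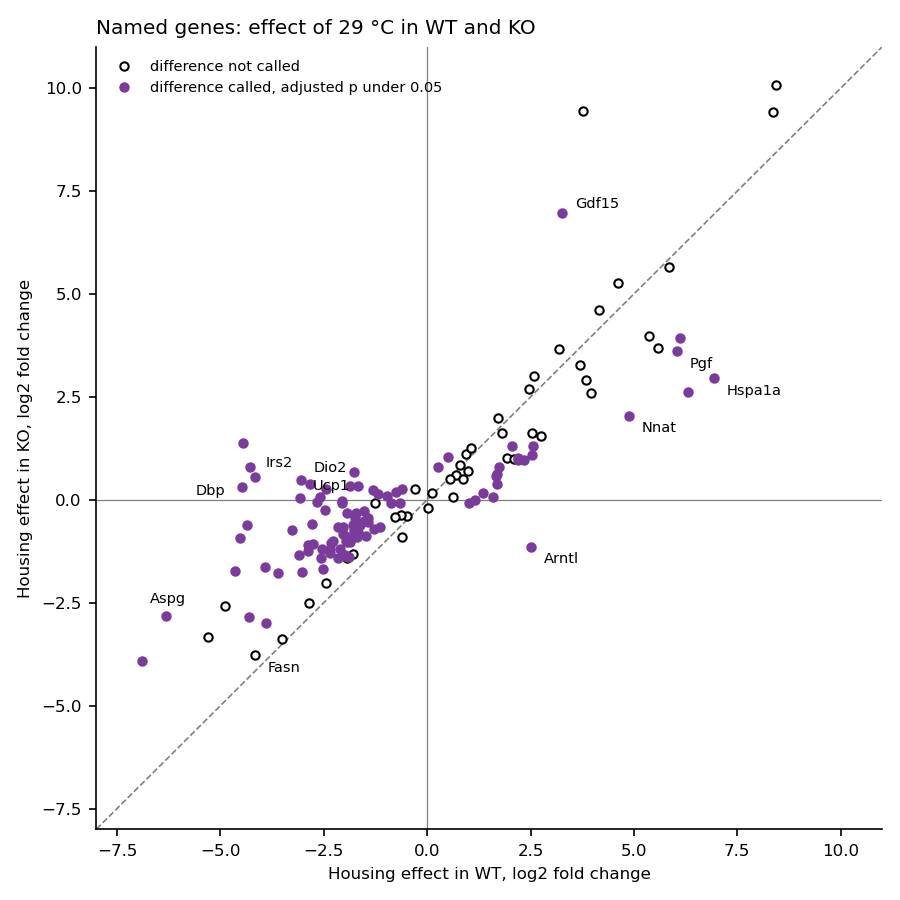
Log2 fold change at 29 °C against room temperature in WT (x axis) and in KO (y axis) for the genes named in the text, without Akr1cl and Bmp8b, whose fold changes rest on at most 1 count in a WT group; filled points are genes whose effects differed at an adjusted p under 0.05, and the dashed line marks equal effects. Ucp1, Dio2, Dbp and Irs2 fell in WT and lie near 0 in KO, Fasn lies near the line, and Gdf15 lies above it.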

How the data were processed

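Brown adipose tissue RNA of 15 mouse libraries was read as 150 bp paired ends on a BGIseq500, per the labels' protocols. Per the submitters' processing notes the tools were STAR 2.7.10a, RSEM 1.2.28 and DESeq2 (given as 1.3.40) and the build mm10. The deposited table gives RSEM's expected counts, which the authors listed by gene symbol (24030 symbols) in 1 column per library; whether counting used the strand is not stated. Each column was matched to its sample by name.

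Counts were rounded, filtered with filterByExpr (minimum count 10), scaled by TMM and fitted in edgeR 4.0.16 (R 4.3.3, limma 3.58.1) by robust quasi-likelihood, in 1 model of 4 groups with 11 residual degrees of freedom. The contrasts were WT at 29 °C minus WT at room temperature and its difference from the same contrast in KO. P-values were adjusted by the Benjamini-Hochberg method over all 15083 genes tested. The SE of a fold change comes from the F statistic. The fit was tested on simulated data. Sums and shares were compared by exact permutation over libraries.

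The comparison, the 54 gene lists and the naming rule were chosen with earlier results of these data known. The rule names a fixed set of genes that starts with Park7; from called genes that averaged 1 CPM or more and did not overlap between the groups, 15 each way by size; the 10 largest differences in CPM; the 12 smallest p-values at 10 CPM or more; and up to 5 called and 4 uncalled members of each list. Of 145 genes named with values, 130 meet it. Ndufa2, Gatm, Alpl, Idh2, Cpt1a, Aldoa, Slc2a1, Ppp1r3g, Fads1, Irs2, Nr1d1, Per3, Ciart, Dnaja1 and Cd74, and the count of Myh4, were chosen after their values were seen. Gyk is listed as Gk, and Ckmt1 did not pass the filter. Positions and promoter sequences are those of RefSeq on GRCm38.p6, matched by symbol (94.6% of symbols found).

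Alternatives were RLE size factors, library totals without TMM, mitochondrially encoded genes left out, no filter, 1 CPM in 4 libraries, the 8 WT libraries only, limma-voom, DESeq2 1.42.0, a replicate block, a threshold of 0.01 on the adjusted p, a muscle score as covariate, and leaving out 3 libraries with muscle transcripts or each library in turn. The 3 libraries with muscle transcripts were warm WT replicate 2 and warm KO replicates 2 and 3. No label names a batch, and no 2 WT libraries agreed within sampling noise (chi-square per degree of freedom between replicates 12.1 to 96.3).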

Additional observations from a re-analysis of the deposited data

Results flagged for a closer look

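The housing effect differed between WT and KO, by the interaction test of the edgeR fit, for 100 of the 145 genes named in the text, with adjusted p-values up to 0.0376. Over all genes tested the share was 28.3%, and among genes called in WT it was 37.3%. Each value below is the effect in KO minus the effect in WT, on the log2 scale. Genes are grouped by the sign of the estimate in KO, whether or not the effect in KO was itself called in the same edgeR fit. The genes were named mainly for their change in WT, which favours a larger effect there.

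The change in KO was not called for some genes of the next group, such as Ppargc1a (log2 change -0.05, adjusted p = 0.94), Plin1 (-0.08, 0.65) and Lpl (-0.32, 0.20). Genes that fell in WT, with a smaller negative log2 change in KO, had these positive differences: Fndc5 3.75, Slc4a4 3.59, Aspg 3.49, Bmp8b 3.33, Adcy10 2.96, Pim1 2.9, Ppargc1a 2.61, Rgs7 2.54, Hsd11b1 2.3, Pde4d 2.22, Adcy3 2.2 and Nr1d2 2.03. Positive differences of the same kind were Plin1 1.99, Hyal1 1.84, Gpd2 1.79, Nr1d1 1.74, Irs1 1.7, Otop1 1.65, Lpl 1.63, Prkar2b 1.51, Acot11 1.47, Atp2a2 1.39, Slc25a20 1.38 and Gbe1 1.35. Further genes of this kind had differences of Ebf2 1.29, Hadha 1.28, Tfam 1.27, Gpam 1.27, Klf15 1.26, Dnaja3 1.21, Adrb3 1.2, Uqcrc2 1.17, Letm1 1.15, Letmd1 1.15, Aldoa 1.06 and Mpc2 1.06. The next genes in order of size were Opa1 1.02, Sdha 1.01, Ndufs1 1.0, Cpt2 0.99, Thrb 0.98, Pdha1 0.97, Ogdh 0.96, Bscl2 0.93, Elovl6 0.92, Cox15 0.92, Hspa9 0.9 and Prkaca 0.89. Smaller still were the differences for G6pdx 0.84, Pgk1 0.83, Ctsb 0.81, Lamp2 0.8, Gpd1 0.72, Mtor 0.65, Pfkl 0.63, Mrps2 0.61, Zbtb7b 0.58, Adipoq 0.58, Gys1 0.52 and Insr 0.48.

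Genes that rose in WT, with a smaller positive log2 change in KO, had negative differences: Hspa1a -3.98, Hspa1b -3.69, Nnat -2.84, Pgf -2.45, Cpne9 -2.18, Dnaja1 -1.53, Dll4 -1.44, Gpihbp1 -1.39 and Hspb1 -1.32. The remaining ones of this kind were Ccnd1 -1.26, Egfl7 -1.22, Fads1 -1.18, Esam -1.18, Hspa8 -1.15, Ckb -1.09, Grb10 -1.06, Nupr1 -0.94 and Cd34 -0.74. Some of these were not called in KO, such as Hspa8 (log2 change 0.006, adjusted p = 0.98) and Dnaja1 (0.06, 0.88). For Bmp8b, with 1 count in the warm WT group, the value depends on the prior count of the fit.

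In a further set the effect had opposite signs in the 2 genotypes, in most cases with a value near 0 in KO: Mfsd2a 5.82, Ppp1r3g 5.08, Dbp 4.8, Irs2 4.71, Arntl -3.65, Dio2 3.53, Gk 3.22, Ucp1 3.12, Esrrg 2.72 and Pck1 2.66. The others of this set were Hlf 2.45, Per3 2.2, Npc1 2.0, Tef 1.55, Nrg4 1.32, Gamt -1.08, St13 1.07, Pparg 0.94 and Vegfa 0.86. The genes with a larger change of the same sign in KO were Gdf15 3.7, Slc6a8 0.55 and Cpt1a 0.52.

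Single libraries far from the other 3 of their group, by Dixon's test at the 95% level, were found in 29 of 320 group checks; chance gives about 1 in 20. In warm replicate 2 these were the muscle values: Neb at 48.1 CPM (others 1.49 to 4.36), Tnnc2 at 122 CPM (others 0.347 to 1.14), Acta1 at 199 CPM (others 0.553 to 0.763), the muscle share of counts at 0.221% (others 0.00432% to 0.00755%) and the muscle sum at 1841 CPM (others 43.2 to 66.2). In warm replicate 4, Gk at 132 CPM (others 11.4 to 26), Gpam at 133 CPM (others 117 to 119), Esam at 206 CPM (others 157 to 161) and Hlf at 12.7 CPM (others 8.74 to 8.77) stood apart. In warm replicate 3, Irf4 at 6.54 CPM (others 2.02 to 2.67), Fads1 at 26.7 CPM (others 37.1 to 38.4) and Irs2 at 9.68 CPM (others 2.29 to 3.29) stood apart. In warm replicate 2, Dnaja3 at 94.6 CPM (others 107 to 109), Bmp8b at 0.0332 CPM (others 0 to 0), Hspb6 at 20.3 CPM (others 3.51 to 5.13) and Ckmt2 at 20 CPM (others 0 to 0) stood apart. In warm replicate 1, Dbp at 3.68 CPM (others 1.73 to 1.99) stood apart. In room-temperature replicate 3, Esrrg at 30.4 CPM (others 24.8 to 25.2), Gbe1 at 375 CPM (others 435 to 440) and Cryab at 15.6 CPM (others 23.2 to 24.2) stood apart. In room-temperature replicate 2, Hadha at 2363 CPM (others 2103 to 2122) and Mfsd2a at 36 CPM (others 5.21 to 10.4) stood apart. In room-temperature replicate 1, Lep at 36.8 CPM (others 7.64 to 8.92), Irf4 at 131 CPM (others 91.9 to 93.3), Cpt1a at 11.8 CPM (others 15.1 to 15.6), Dnaja3 at 445 CPM (others 422 to 425), Dll4 at 11.3 CPM (others 7.84 to 8.27), Cdk1 at 0.29 CPM (others 0.126 to 0.13) and Ckmt2 at 1.45 CPM (others 0 to 0) stood apart.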

How the results depend on the processing

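Calls numbered 10375 as reported. They numbered 10367 with RLE size factors, 10364 without mitochondrially encoded genes, 10610 of 23998 genes without a filter, 9525 of 13146 with at least 1 CPM in 4 libraries, 9952 of 14156 with the 8 WT libraries only, 10386 with DESeq2, 10286 with limma-voom, 10159 without 3 libraries with muscle transcripts, 10075 with a muscle score as covariate, and 8716 at an adjusted p under 0.01. Leaving out each WT library in turn gave 9781 to 10266. Scaling by library totals only gave a like number (10498), of which 8402 were the reported calls in the same direction, and changed the split: 2981 genes were lower, against 4954 with TMM. It reversed the sign of the median in 7 of 54 lists, those for mitochondrially encoded genes, secreted factors, stray tissue markers, endoplasmic reticulum folding, antioxidants, chaperone-mediated autophagy and ribosome assembly.

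Of the 145 named genes, 130 kept their direction and their side of the threshold in every alternative run. Cox8b was not called as reported (log2 fold change 0.02). Its log2 fold change was -0.0328 without room-temperature replicate 1, -0.0432 without warm replicate 1 and -0.0335 without warm replicate 3. Over left-out libraries it reached 0.1, without warm replicate 2. With library totals Cox8b was called higher (0.38, adjusted p = 0.029). The cause of these moves was not tested. Park7 was called only with library totals, and Cpt1a, Cidea, Prdm16, Vegfa, Adipoq, Neb, Tnnc2 and Acta1 each lost their call in 1 or more alternatives. Gatm and Alpl did so too. Fgf21 was called in 5 of 18. Hspb6, not called as reported (log2 fold change -0.31), had 0.0824 with library totals and was called lower without the libraries with muscle transcripts (-1.2688), with a muscle score (-1.2318) and without warm replicate 2 (-1.2457). Ckmt2, also not called (3.76), had -6.2969, -3.3425 and -6.3 under those 3 settings, and up to 10.085 without room-temperature replicate 1, as all of its WT counts are in warm replicate 2 and room-temperature replicate 1. The difference in the mitochondrially encoded share ran from 5.483 percentage points without warm replicate 4 to 9.291 without warm replicate 3; leaving out any room-temperature library gave 7.602 to 8.351 and ended the call (exact permutation test, two-sided, p = 0.0571 to 0.0857). The difference in the muscle share ran from 0.001487 percentage points without warm replicate 2 to 0.07364 without warm replicate 4 (exact permutation test, two-sided, p = 0.0286 for the second).

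The labels number replicates 1 to 4 in both groups but do not say that a number marks a shared litter, day or batch. With a replicate block 10270 genes were called, 10171 of them reported calls in the same direction. Same-numbered libraries deviated together weakly (correlations 0.197, -0.089, 0.169 and 0.048), and 2 of 4 room-temperature libraries correlated best with their own number, so the numbers were not taken to pair the samples.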

Other observations

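The warm libraries were less alike than the room-temperature ones. The chi-square per degree of freedom between 2 libraries ran from 12.1 to 20.1 over the 6 room-temperature pairs. Among the warm pairs it was 21.1 for replicates 1 and 2 and ran from 52.8 to 96.3 for the other 5. The median of the de novo lipogenesis list, on a log2 scale against the room-temperature mean, was -1.83, -1.82, -2.29 and -2.93 in warm replicates 1 to 4. Nuclear-encoded respiratory chain subunits had medians of -0.29, -0.38, -0.65 and -0.75 in the same libraries. The thyroid hormone list differed little between them, from -1.07 to -1.03.

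Further genes that the naming rule gave were not described above. Mfsd2a, which carries lysophospholipids with long polyunsaturated chains, was at 5.21, 36.03, 5.499 and 10.4 CPM at room temperature and 0.173, 0.399, 0.726 and 1.37 CPM at 29 °C (log2 change -4.44 ± 1.198, adjusted p = 0.0058; -3.42 without room-temperature replicate 2). Fndc5, the precursor of the secreted peptide irisin, was at 6.78, 5.75, 7.64 and 12.9 CPM and 0.0694, 0.598, 0.726 and 0.161 CPM (log2 change -4.37 ± 0.69, adjusted p = 9.0e-05). Cox15, which makes the heme A of cytochrome oxidase, was at 74.4, 70.8, 67.3 and 68.5 CPM and 14.4, 15.9, 18.5 and 16.2 CPM (log2 change -2.11 ± 0.09, adjusted p = 1.2e-10). All 3 fell without overlap between the groups, with room-temperature values of Mfsd2a spread widest.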
